A study of Salmo salar with 6 samples.

Results

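Enzyme transcripts of glycolysis, the TCA cycle and the pentose phosphate pathway were compared between the AQUOLIVE diet and the control diet in the head kidney (HK) of Atlantic salmon. The members were chosen by gene symbol alone, and no measured value entered the rule, though earlier results of these data were known. A probe was taken where the symbol of its gene begins like that of an enzyme of glycolysis, gluconeogenesis, pyruvate dehydrogenase, the TCA cycle, the pentose phosphate pathway, glycogen metabolism or the aspartate and glutamate reactions linked to them. This gave 55 probes, 1 for each of 55 genes, out of 8072 genes that have a symbol and 42386 probes on the array. A further 17486 probes belong to genes with only a locus number, which the choice by symbol could not reach, and no probe was taken for phosphoglycerate kinase, pyruvate kinase, isocitrate dehydrogenase, fumarase or glycogen synthase. In 3 of the 55 genes only the letters match: pkmyt1 is a cell cycle kinase, pgam5 a mitochondrial protein phosphatase and pgm3 an enzyme of hexosamine synthesis.

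The AQUOLIVE diet held 0.15% of an olive fruit extract and the control diet held 0%, and both were fed for 133 days to unvaccinated salmon that became smolts and were moved to seawater within that time. HK RNA was hybridized as 3 pools per diet to 6 one-color Agilent arrays. A pool joined 6 fish, 1 from each tank of its diet, so 18 fish per diet were measured, pools of a diet shared their tanks, and the spread between arrays is one between pools and not between single fish.

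Glycolysis splits glucose into pyruvate in the cytosol, and the pyruvate dehydrogenase complex feeds the product to the TCA cycle in the mitochondria. The pentose phosphate pathway leaves glycolysis at glucose 6-phosphate; its oxidative branch makes NADPH and its non-oxidative branch exchanges ribose with glycolytic sugars. The HK makes the blood cells and many of the leukocytes of bony fish: its phagocytes spend NADPH on the oxidative burst, its dividing precursors need ribose for nucleotides, and fish red blood cells keep a nucleus and mitochondria.

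All levels below are the log2 of the processed spot signal after normalization between arrays, and a log2 FC is the mean of the AQUOLIVE pools minus the mean of the control pools. Between 54.2% and 76.0% of probes were well above background on the AQUOLIVE arrays, against 42.5% to 61.0% on the control arrays, with control pool 3 lowest. Spots marked as outliers held 36.5% of the signal of AQUOLIVE pool 2 and were left out, which removed 4 member values there and 1 in AQUOLIVE pool 3. The AQUOLIVE arrays come, by their slide numbers, from another run of slides than the control arrays and were scanned later, so diet, slide run and scan order cannot be told apart. Markers of blood-forming tissue were measured on every array, among them alas2 and gata1 of red blood cell precursors, and the median log2 FC of 5 erythrocyte marker probes was 0.03, with 1 of them, hba, higher at 0.90, past the threshold called the methods' threshold here. That threshold joins an unpaired test at an unadjusted p under 0.05, as the methods state it, to a minimum absolute log2 FC of 0.8, which the methods do not state. Of 8 neutrophil marker probes none was higher and 2 were lower with AQUOLIVE past that threshold, and in 5 macrophage and antigen presentation probes these counts were 0 and 1. Of the 2 lower neutrophil probes, mmp25a was above background on 1 AQUOLIVE and 2 control arrays only. In bulk RNA, fewer cells of a type and less transcript per cell cannot be told apart.

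No member differed between the diets in limma after Benjamini-Hochberg adjustment over all probes tested. Of the 55 members, 49 passed the filter on dim probes, a signal clear of background on 3 or more of the 6 arrays, and were tested among 25826 probes. The smallest adjusted p of a member in limma was 0.113, and 0 of 49 members passed 0.05, beside 4 probes, 0.0155%, of all those tested. At an unadjusted limma p under 0.05 stood 4 members (8.16%), pgls and g6pc3 with higher and g6pc1a.1 and tkt with lower values in AQUOLIVE pools, beside 18.1% of all probes tested (9.56% higher and 8.58% lower). The methods' threshold was passed by 3 members (6.12%), beside 9.05% of all probes. Those 3 were pgls and g6pc3, higher with AQUOLIVE (5.22% of all probes passed in that direction), and g6pc1a.1, lower (3.83% of all probes). None of them passed after Benjamini-Hochberg adjustment of that test.

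As a group, the members differed little between the diets. Their median log2 FC was 0.14, beside -0.02 over all probes tested, with 27 members above 0 and 22 below. The median size of a log2 FC, whatever its sign, was 0.46 in members and 0.44 in all probes, and 28 of 49 members (57.1%), beside 55.1% of all probes, lay within 0.5 of no change. Of the 44 members with a value on every array, 11 (25%) had all AQUOLIVE pools on the same side of all control pools, 8 of them higher and 3 lower, beside 29.7% of all such probes (14.7% higher and 15% lower). The shares of 57.1% and 25% were close to or below those of the array as a whole. By direction, the 8 higher and 3 lower members were less even than all such probes, and this split was not tested.

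**Figure D1:**
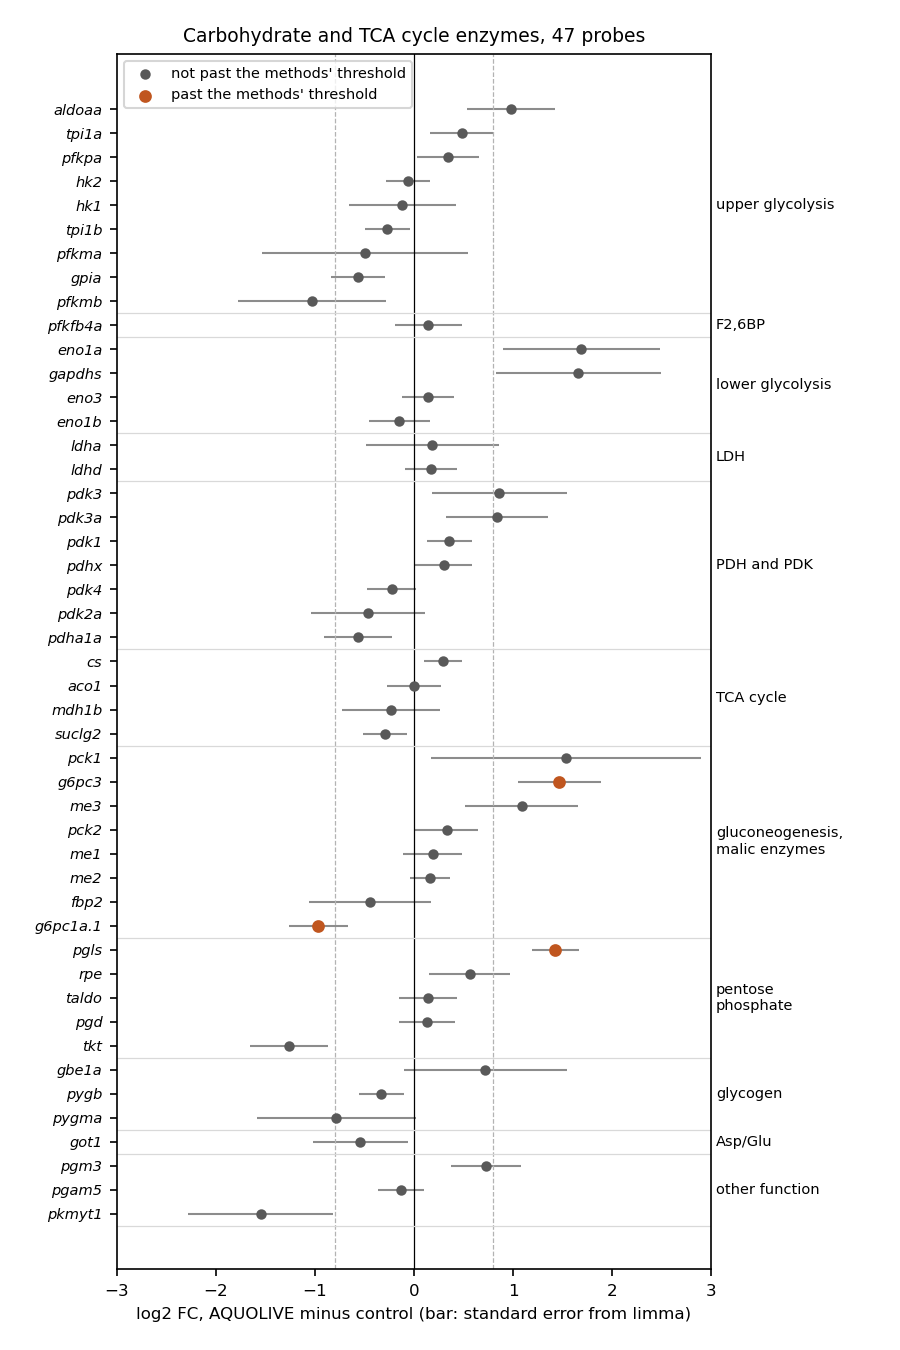
Log2 FC (horizontal axis, AQUOLIVE minus control) of 47 of the 49 member probes tested, grouped by role on the vertical axis, with bars for limma's standard error and dashed lines at 0.8 on either side of 0. The 3 probes past the methods' threshold (orange) are g6pc3 at 1.47, g6pc1a.1 at -0.97 and pgls at 1.43, and 27 of the 47 points lie within 0.5 of 0.

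In the pentose phosphate pathway, pgls was higher in every AQUOLIVE pool, while tkt was lower in the AQUOLIVE pools in which it was measured. The probe of pgls, the lactonase of the second oxidative step, read 11.80, 11.84 and 12.02 in AQUOLIVE pools 1, 2 and 3, against 10.34, 10.80 and 10.22 in control pools 1, 2 and 3. The lowest AQUOLIVE pool lay 0.99 above the highest control pool, and the means were 11.88 ± 0.12 and 10.45 ± 0.31 (SD, n = 3 each). Its log2 FC was 1.43 (SE 0.24), with a limma adjusted p of 0.113. The difference stayed past the methods' threshold in each of the 6 fits that leave out 1 array, and its log2 FC there ranged between 1.29 and 1.62. It was not past that threshold with another background correction or on the deposited log2 values, at 1.03 and 0.87.

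The probe of tkt, transketolase of the non-oxidative branch, read 14.30 and 14.46 in AQUOLIVE pools 1 and 3, against 15.46, 15.19 and 16.28 in control pools 1, 2 and 3. The spot of AQUOLIVE pool 2 was marked as an outlier, so the diets are set apart by 5 values only. Its log2 FC was -1.26 (SE 0.39), with a limma adjusted p of 0.212, and it did not pass the methods' threshold. With outlier spots kept it passed, and so it did without control pool 3, at -0.91. With another background correction and on the deposited log2 values its log2 FC was -0.62 and -0.63, not past the threshold. Before normalization the processed signals of this bright probe overlapped, at 47380, 50290 and 49380 in AQUOLIVE pools 1, 2 and 3 and 61280, 47210 and 50500 in control pools 1, 2 and 3, so the difference is one relative to probes of like brightness on each array.

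The further enzymes of the pathway given here, pgd, rpe and taldo, passed neither threshold. The probe of pgd, which makes NADPH in the oxidative branch, read 15.57 and 15.56 in AQUOLIVE pools 1 and 3, against 15.61, 15.62 and 15.07 in control pools, and its log2 FC of 0.13 turned to -0.18 with quantile normalization. The epimerase rpe had a log2 FC of 0.56 (SE 0.41), which was 0.10 without control pool 3, and transaldolase, taldo, had one of 0.14 (SE 0.29).

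**Figure D2:**
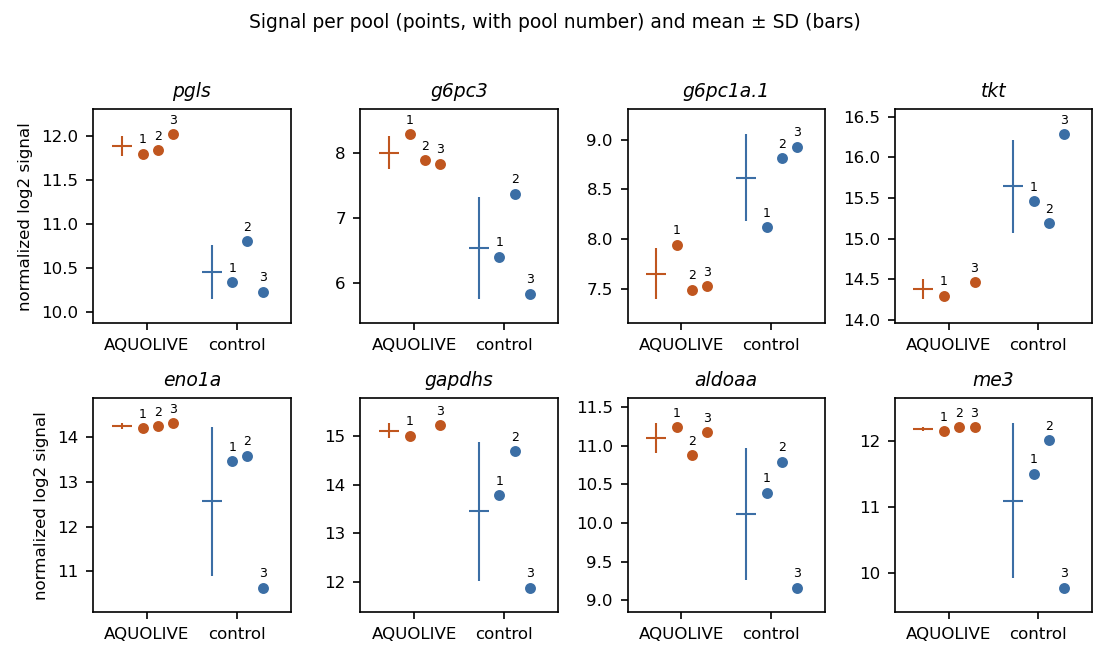
Normalized log2 signal (vertical axis) of 8 member probes in AQUOLIVE pools (orange) and control pools (blue), with a point and pool number for each array and a bar for mean ± SD. In all 8 probes the diets do not overlap, and in eno1a, gapdhs, aldoaa and me3 control pool 3 lies apart from control pools 1 and 2. The probes of tkt and gapdhs have no value in AQUOLIVE pool 2.

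Among the enzymes that release or make glucose, the 2 measured glucose 6-phosphatase genes differed in opposite directions. Both encode catalytic subunits that free glucose from glucose 6-phosphate in the endoplasmic reticulum: g6pc3 is the form found in most tissues, whose loss in humans causes a lack of neutrophils, and g6pc1a.1 is a copy of the liver and kidney form. The probe of g6pc3 read 8.29, 7.89 and 7.84 in AQUOLIVE pools 1, 2 and 3, against 6.40, 7.38 and 5.84 in control pools 1, 2 and 3, and was above background on 3 AQUOLIVE and 2 control arrays. The probe of g6pc1a.1 read 7.95, 7.49 and 7.53 in AQUOLIVE pools 1, 2 and 3, against 8.12, 8.81 and 8.93 in control pools 1, 2 and 3. In both probes the diets did not overlap. The log2 FC of g6pc3 was 1.47 (SE 0.42) and that of g6pc1a.1 was -0.97 (SE 0.30), with limma adjusted p of 0.179 and 0.195. Of the 6 fits that leave out 1 array, g6pc3 passed the methods' threshold in 1 and g6pc1a.1 in 2; without control pool 3 neither passed, at 1.12 and -0.78.

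A marker of kidney tubule was lower with AQUOLIVE too. Of 6 kidney marker probes 2 were above background often enough to be tested, and 1 of these passed the methods' threshold; this was cdh16, a cadherin of kidney tubules, which read 7.02, 7.69 and 8.46 in AQUOLIVE pools, against 9.25, 8.98 and 10.15 in control pools, a log2 FC of -1.74. The log2 of the summed kidney list was between 7.59 and 8.60 in AQUOLIVE pools, against 9.03 to 10.18 in control pools. The neutrophil list, set beside g6pc3, had summed log2 signals of 16.52 to 17.06 in AQUOLIVE pools, against 16.79 to 17.08 in control pools. This sum leaves out mpx, which has no value in control pool 3. Probes of the list differed in direction: mpx and mmp25a were lower past the methods' threshold, at -0.90 and -1.05. The mmp25a probe was above background on 1 AQUOLIVE and 2 control arrays only, so its difference is only in part measured above background. The probe of csf3r was higher without overlap, at 1.28, and did not pass that threshold. The part of either cell type in the glucose 6-phosphatase values was not tested.

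Among the remaining genes of gluconeogenesis and the malic enzymes, the largest differences rested on single pools. The probe of pck1, the cytosolic phosphoenolpyruvate carboxykinase that starts gluconeogenesis, read 6.05, 5.71 and 10.53 in AQUOLIVE pools 1, 2 and 3, against 5.97, 4.68 and 7.04 in control pools 1, 2 and 3. AQUOLIVE pool 3 alone stood far above the rest: the log2 FC was 1.54 (SE 1.37), and -0.01 without that pool. Of 6 liver marker probes 4 were tested, and AQUOLIVE pool 3 was not their highest array: their summed log2 signal was 12.17, 13.15 and 12.36 in AQUOLIVE pools 1, 2 and 3, against 13.24, 12.89 and 13.30 in control pools 1, 2 and 3. This sum was nearly that of its brightest probe, tfa, which read 12.16, 13.01 and 12.32 in AQUOLIVE pools 1, 2 and 3. The part of liver RNA in the pck1 values was not tested. The mitochondrial counterpart of pck1, pck2, read 5.13, 5.86 and 5.84 in AQUOLIVE pools, against 5.66, 4.89 and 5.29 in control pools, which overlap. The pck2 probe was above background on 3 AQUOLIVE and 2 control arrays.

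The probe of me3, the mitochondrial malic enzyme that makes NADPH, read 12.15, 12.20 and 12.21 in AQUOLIVE pools 1, 2 and 3, against 11.50, 12.01 and 9.77 in control pools 1, 2 and 3. All AQUOLIVE pools lay above all control pools, but the log2 FC of 1.09 (SE 0.57, limma adjusted p 0.347) was 0.41 without control pool 3. The cytosolic and the NAD-linked malic enzymes, me1 and me2, had log2 FC of 0.19 and 0.16 with overlapping pools. The muscle-type fructose bisphosphatase fbp2 overlapped too, at -0.44, from 2 AQUOLIVE pools. It read 5.14 and 7.17 in AQUOLIVE pools 1 and 2, against 6.80, 6.49 and 6.51 in control pools 1, 2 and 3. The spot of AQUOLIVE pool 3, marked as an outlier and left out, had the highest processed signal before normalization, at 937.6. The others were 91.73 and 275.1 in AQUOLIVE pools 1 and 2, and 153.6, 145.6 and 41.38 in control pools 1, 2 and 3. The sign of the fbp2 difference therefore holds only for the pools kept.

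In upper glycolysis, 0 of 10 tested members passed either threshold, 4 were above 0 and 6 below, and the median log2 FC was -0.09. The probe of aldoaa, an aldolase A copy, read 11.24, 10.87 and 11.17 in AQUOLIVE pools 1, 2 and 3, against 10.39, 10.79 and 9.16 in control pools 1, 2 and 3. The diets did not overlap, by 0.09 at the closest pair, and its log2 FC of 0.98 (SE 0.44, limma adjusted p 0.297) was 0.49 without control pool 3. The isomerase gpia, which opens glycolysis to fructose 6-phosphate, read 15.02 in both AQUOLIVE pools 1 and 3, against 15.64, 15.28 and 15.84 in control pools 1, 2 and 3.

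That difference in gpia was -0.57 (SE 0.28, limma adjusted p 0.334), from 5 values. The triose phosphate isomerase copies tpi1a and tpi1b had log2 FC of 0.48 (SE 0.32) and -0.27 (SE 0.22), and that of tpi1a was 0.15 without control pool 3. The hexokinases hk1 and hk2, which trap glucose in the cell, and the platelet-type phosphofructokinase pfkpa lay between -0.12 and 0.34 with overlapping pools. The bifunctional enzyme pfkfb4a, which sets the level of the glycolytic activator fructose 2,6-bisphosphate, read 6.45, 6.20 and 6.33 in AQUOLIVE pools, against 5.48, 6.50 and 6.55 in control pools, a log2 FC of 0.15 that was -0.13 without control pool 1. Its probe was above background on 3 AQUOLIVE and 2 control arrays.

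In lower glycolysis, the size of the largest differences depended on control pool 3. The probe of eno1a, an alpha-enolase copy, read 14.20, 14.25 and 14.32 in AQUOLIVE pools 1, 2 and 3, against 13.47, 13.59 and 10.64 in control pools 1, 2 and 3. The diets did not overlap, and the log2 FC was 1.69 (SE 0.79, limma adjusted p 0.311). Without control pool 3 it was smaller, at 0.66, with a smaller limma adjusted p of 0.187. The probe of gapdhs, a glyceraldehyde 3-phosphate dehydrogenase gene named after the sperm form of mammals, read 15.00 and 15.22 in AQUOLIVE pools 1 and 3, against 13.78, 14.69 and 11.89 in control pools 1, 2 and 3. Its pools did not overlap either, and its log2 FC of 1.66 (SE 0.83, limma adjusted p 0.344) was 0.83 without control pool 3 (limma adjusted p 0.379). The other enolases moved less: eno1b had a log2 FC of -0.15 and the muscle-type eno3 one of 0.14, both with overlapping pools and both within their standard errors of 0.31 and 0.26. The probe of eno4, a sperm enolase in mammals, was above background on 0 arrays.

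Lactate dehydrogenase showed no difference between the diets beyond the spread of the pools. The probe of ldha, the form that makes lactate in working muscle, read 8.65, 10.20 and 11.28 in AQUOLIVE pools 1, 2 and 3, against 10.38, 9.74 and 9.46 in control pools 1, 2 and 3. The AQUOLIVE pools spanned the control pools, with SDs of 1.32 and 0.47, and the log2 FC of 0.18 had an SE of 0.67. The mitochondrial D-lactate enzyme ldhd read 8.89, 8.62 and 8.72 in AQUOLIVE pools, against 8.37, 8.34 and 9.02 in control pools, at 0.17 (SE 0.26). The heart-type copy ldhbb was above background on 0 arrays.

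At the entry to the TCA cycle, no probe passed either threshold and none separated the diets. The probe of pdha1a, the catalytic E1 subunit of pyruvate dehydrogenase, read 10.90, 11.98 and 11.04 in AQUOLIVE pools 1, 2 and 3, against 11.90, 11.63 and 12.11 in control pools 1, 2 and 3. AQUOLIVE pool 2 lay among the control pools, and the log2 FC of -0.57 (SE 0.34, limma adjusted p 0.395) was -0.91 without that pool, past the methods' threshold, and -0.37 and -0.44 without AQUOLIVE pools 1 and 3, not past it. The kinases that switch the complex off were not all on 1 side. The copies pdk3 and pdk3a had log2 FC of 0.86 (SE 0.68) and 0.84 (SE 0.52), which were 0.11 and 0.26 without control pool 3, and pdk1, pdk4 and pdk2a lay between -0.46 and 0.36 with overlapping pools. The pdk4 and pdk2a probes were above background on 2 control arrays each, and on 3 and 2 AQUOLIVE arrays. The E3-binding subunit pdhx stood at 0.30, and dldh, the E3 subunit, was above background on 1 AQUOLIVE and 1 control array and was not tested.

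The members grouped under the TCA cycle differed little in size. All 4 tested members lay within 0.5 of no change, at a median of -0.12. They hold cs and suclg2 of the cycle itself, and aco1 and mdh1b, a cytosolic and a malate dehydrogenase-like form. The probe of cs, citrate synthase, read 10.78, 10.85 and 10.97 in AQUOLIVE pools 1, 2 and 3, against 10.58, 10.51 and 10.64 in control pools 1, 2 and 3, all AQUOLIVE pools above all control pools. That difference was 0.29 (SE 0.19, limma adjusted p 0.424), and on the deposited values it was -0.13. In suclg2, a subunit of succinyl-CoA ligase, each AQUOLIVE pool was below each control pool, at 7.17, 7.26 and 6.81 in AQUOLIVE pools, against 7.53, 7.28 and 7.32 in control pools, a difference of -0.29 (SE 0.22). The cytosolic aconitase aco1 and the malate dehydrogenase-like mdh1b overlapped, and mdh1b was above background on 3 AQUOLIVE and 2 control arrays. The probe of ogdha, of the 2-oxoglutarate dehydrogenase complex, was above background on 1 AQUOLIVE array only.

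**Figure D3:**
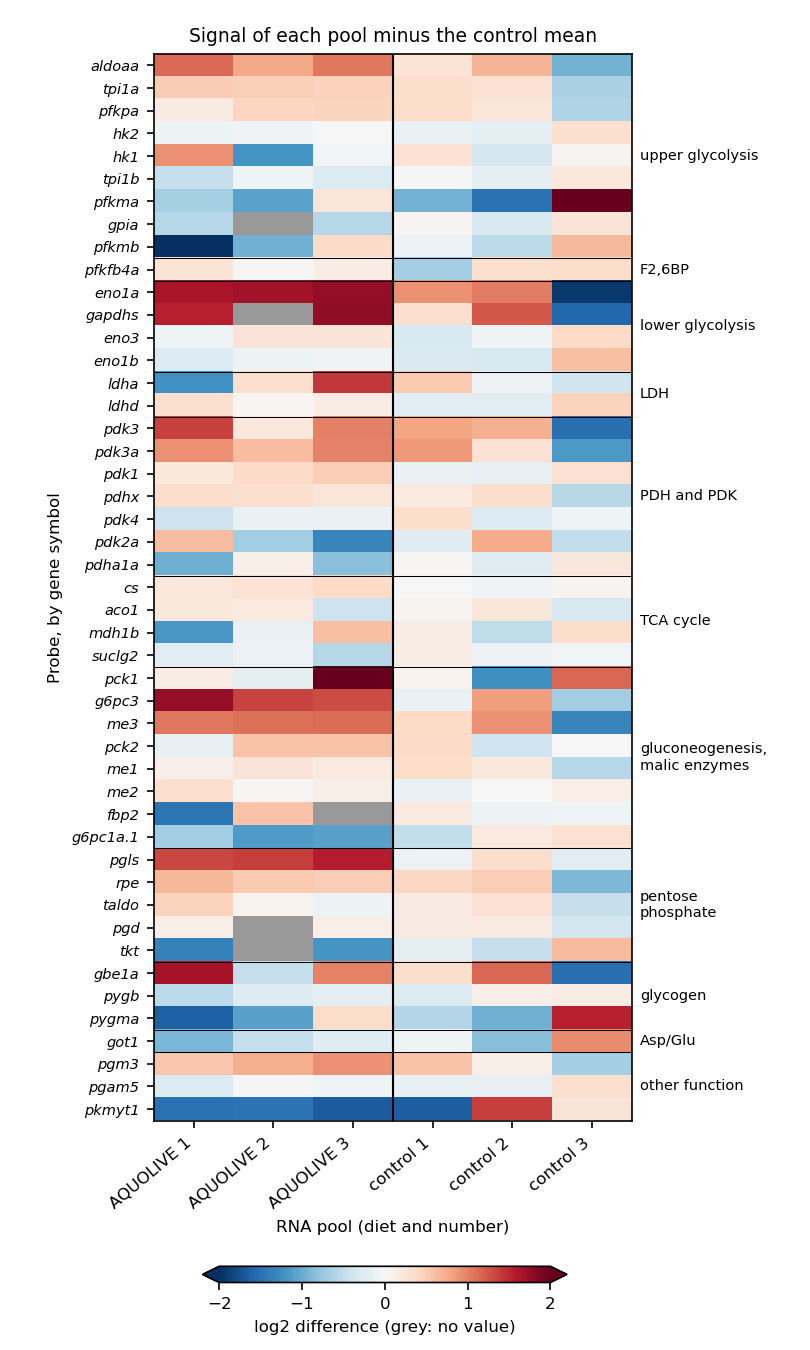
Difference of each pool (columns, AQUOLIVE pools 1 to 3 left of control pools 1 to 3) from the mean of the control pools on the log2 scale, for 47 of the 49 tested member probes (rows, grouped by role); red is above the control mean, blue below and grey has no value. Control pool 3 is the darkest column in eno1a, pfkma and pygma among the control pools, and pgls, g6pc3, eno1a and me3 are red in every AQUOLIVE pool that has a value.

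The muscle-type members pfkma, pfkmb and pygma, chosen after their values were seen, varied more between pools of a diet than between the diets. These phosphofructokinases and this glycogen phosphorylase are the forms of skeletal muscle in mammals. The probe of pfkma read 4.89, 4.48 and 5.78 in AQUOLIVE pools 1, 2 and 3, against 4.60, 4.05 and 7.98 in control pools 1, 2 and 3. It was above background on 3 AQUOLIVE and 2 control arrays. The probe of pfkmb read 5.50, 7.07 and 8.40 in AQUOLIVE pools, against 7.91, 7.49 and 8.67 in control pools. The probe of pygma read 6.50, 7.06 and 8.51 in AQUOLIVE pools, against 7.55, 7.18 and 9.69 in control pools. In all 3, control pool 3 was the highest array and AQUOLIVE pool 3 the highest AQUOLIVE array, and the diets overlapped, although in pfkmb and pygma AQUOLIVE pools 1 and 2 lay below all control pools. Their log2 FC were -0.49 (SE 1.04), -1.03 (SE 0.75) and -0.78 (SE 0.81), and those of pfkma and pygma were 0.64 and 0.01 without control pool 3. That of pfkmb was -0.29 without AQUOLIVE pool 1 and -1.74 without AQUOLIVE pool 3. Of the other members described above as muscle forms, eno3 was also highest in control pool 3, at 10.87. In ldha control pool 3 was the lowest control pool, at 9.46, and in fbp2 it read 6.51, below control pool 1 at 6.80.

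Tested skeletal muscle markers other than casq1 had the order of pools of pfkmb and pygma. In pfkma, control pool 3 and AQUOLIVE pool 3 were also the highest arrays, but control pool 2 was the lowest. The probe of ckmb, a muscle creatine kinase, read 8.71, 9.56 and 11.56 in AQUOLIVE pools 1, 2 and 3, against 10.87, 10.52 and 12.92 in control pools 1, 2 and 3. Over the 4 tested of 5 muscle marker probes, the summed log2 signal was 9.45, 10.01 and 12 in AQUOLIVE pools, against 11.18, 10.87 and 13.14 in control pools. The median log2 FC of these markers was -0.83, and none passed the methods' threshold. The part of muscle RNA in the values of pfkma, pfkmb and pygma was not tested.

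**Figure D4:**
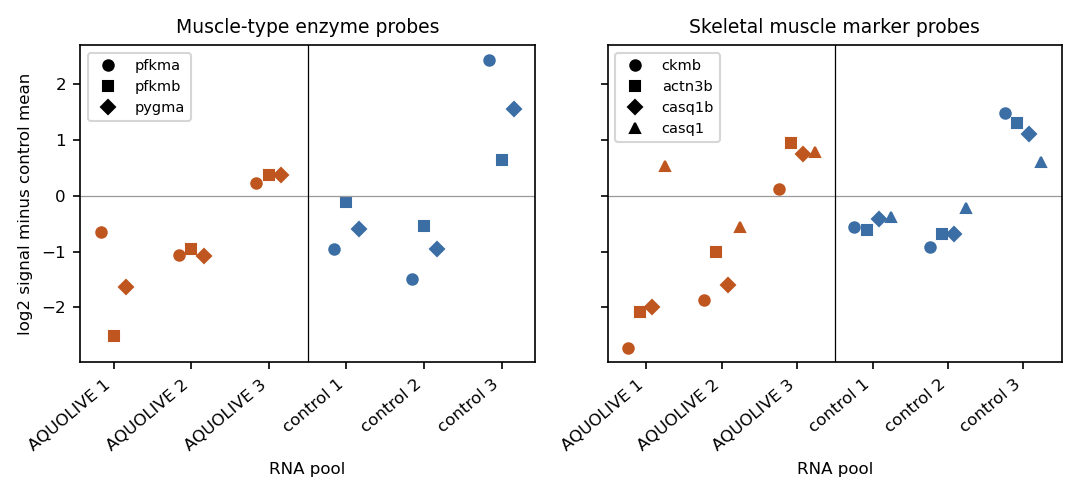
Log2 signal minus the control mean (vertical axis) on each of the 6 arrays (horizontal axis, AQUOLIVE pools left of control pools) for the muscle-type enzyme probes pfkma, pfkmb and pygma (left panel) and the skeletal muscle marker probes ckmb, actn3b, casq1b and casq1 (right panel). Control pool 3 is the highest array in all but casq1, whose highest array is AQUOLIVE pool 3.

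In glycogen metabolism outside muscle, pygb, the brain-type phosphorylase, read 11.48, 11.77 and 11.84 in AQUOLIVE pools 1, 2 and 3, against 11.74, 12.15 and 12.18 in control pools 1, 2 and 3. The pools overlapped, at a log2 FC of -0.33 (SE 0.23, limma adjusted p 0.455). The branching enzyme gbe1a was at 0.72 with an SE of 0.83, and was above background on 3 AQUOLIVE and 2 control arrays. Of the aspartate and glutamate enzymes only got1, the cytosolic aspartate aminotransferase, was tested: it read 6.23, 6.67 and 6.90 in AQUOLIVE pools, against 7.05, 6.29 and 8.09 in control pools. Its log2 FC of -0.54 (SE 0.48) was -0.05 without control pool 3. The aminotransferase-like got1l1 was above background on 0 arrays and the glutaminase-like glsl on 1 AQUOLIVE array.

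The 3 genes taken for their letters alone passed neither threshold, though pkmyt1 and pgm3 passed that of the methods without control pool 1. The cell cycle kinase pkmyt1 read 5.88, 5.89 and 5.71 in AQUOLIVE pools 1, 2 and 3, against 5.73, 8.77 and 7.64 in control pools 1, 2 and 3, so AQUOLIVE pools were alike and control pool 1 lay among them. Its log2 FC was -1.55 (SE 0.73, limma adjusted p 0.314), and between -2.33 and -0.94 with 1 array left out. The phosphatase pgam5 read 11.31, 11.54 and 11.50 in AQUOLIVE pools, against 11.43, 11.41 and 11.90 in control pools, at -0.13. The hexosamine enzyme pgm3 was at 0.73 (SE 0.35) with overlapping pools.

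Genes that encode forms of 1 enzyme were compared within each array, where a difference between arrays in labelling or scanning that is common to both probes cancels. Each pair is given as the change in the log2 difference between its probes, AQUOLIVE minus control, since the level of a probe cannot be set against that of another. Of 25 pairs, 7 had no overlap between the diets, beside 29.7% of all single probes with a value on every array. Pairs can share a probe, as eno1a minus eno1b and eno1a minus eno3 do, so the 7 are not separate results. The smallest two-sided exact permutation p that 3 pools against 3 allow, 0.1, became 0.357 after Benjamini-Hochberg adjustment over the pairs. For g6pc1a.1 minus g6pc3 the change was -2.43, the difference of the log2 FC given above for these genes. Each gene had no overlap, in opposite directions, so this pair could not overlap and is not a further result. Relative to their control mean, the pair differences were -2.43, -2.48 and -2.39 in AQUOLIVE pools 1, 2 and 3, against -0.36, -0.65 and 1.01 in control pools 1, 2 and 3. The AQUOLIVE pools were nearly the same (SD 0.046), and the control pools varied more (SD 0.887). The g6pc3 probe was above background on 2 of the 3 control arrays, so the control values and the change of this pair are only in part measured above background.

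In g6pc1a.1 minus g6pc3, eno1a minus eno1b and tpi1a minus tpi1b, control pool 3 lay apart from control pools 1 and 2. In pdk1 minus pdk4, also without overlap, control pool 1 lay apart. Relative to their mean, its control pools 1, 2 and 3 were at -0.49, 0.11 and 0.38. For eno1a minus eno1b the change was 1.84, with 1.91, 1.78 and 1.82 in AQUOLIVE pools, against 1.19, 1.34 and -2.53 in control pools relative to their mean. For tpi1a minus tpi1b the change was 0.75 and for me1 minus me3 it was -0.90. The pair pdk3 minus pdk3a changed by 0.02 (SDs of 0.43 and 0.40 in AQUOLIVE and control pools), with overlapping pools.

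**Figure D5:**
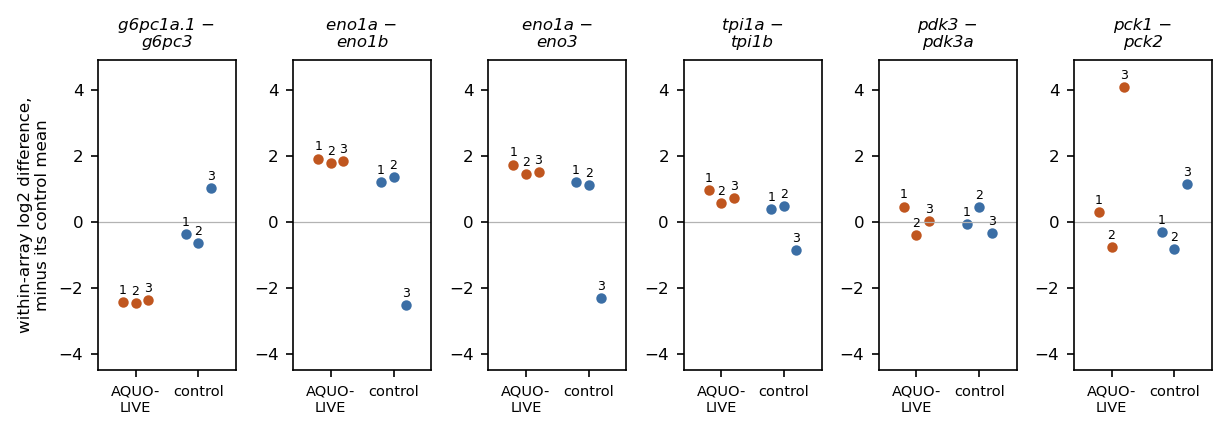
Log2 difference between 2 probes of the same enzyme on each array, minus its mean over the control pools (vertical axis), for 6 pairs, with AQUOLIVE pools (orange) left of control pools (blue) and the pool number above each point. The AQUOLIVE values of g6pc1a.1 minus g6pc3 lie between -2.48 and -2.39, below all control values, while pdk3 minus pdk3a and pck1 minus pck2 overlap.

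Across the members, control pools were more spread than AQUOLIVE pools, and the same held over the array. The median SD was 0.19 over AQUOLIVE pools and 0.48 over control pools in members, beside 0.24 and 0.45 in all probes tested, and the control SD was the larger in 35 of 49 members (71.4%), beside 71.1% of all probes. Control pool 3 was the lowest or the highest of the 6 arrays in 31 of 44 members (70.5%), beside 58.9% of all such probes. It was the control pool farthest from the other 2 in 30 of 49 members (61.2%), beside 48.8%. The median difference of the members from the control mean was 0.15, 0.08 and 0.24 in AQUOLIVE pools 1, 2 and 3, against 0.06, 0.00 and 0.01 in control pools 1, 2 and 3.

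Genes of the same pathways that the choice by symbol did not take gave 44 probes of 43 genes, among them glucose transporters, succinate dehydrogenase, mitochondrial carriers, galactose and mannose enzymes and regulators of hypoxia and energy state. Of these, 37 were tested, 0 passed limma's adjusted p of 0.05 (smallest 0.136), and 7 (18.9%, beside 18.1% of all probes) stood at an unadjusted limma p under 0.05, 5 higher and 2 lower with AQUOLIVE. All 37 had a value on every array, and in 15 (40.5%) the diets did not overlap, 9 higher and 6 lower with AQUOLIVE. That share was 29.7% over all such probes (14.7% higher and 15% lower), and the difference in share was not tested. The methods' threshold was passed by 4 (10.8%, beside 9.05% of all probes). The catalytic AMP-activated kinase subunit prkaa2, a sensor of low energy, read 8.05, 7.89 and 8.19 in AQUOLIVE pools 1, 2 and 3, against 6.76, 5.83 and 5.09 in control pools 1, 2 and 3, at a log2 FC of 2.15. Its probe was above background on 2 of the 3 control arrays, and its log2 FC was 0.96 with another background correction. The prolyl hydroxylase egln2, which marks hypoxia-inducible factor for decay, read 8.34, 8.31 and 8.54 in AQUOLIVE pools, against 7.23, 7.22 and 6.18 in control pools, at 1.52, or 0.70 and no longer past the threshold with another background correction. Its relative egln3 had a log2 FC of -0.46, with all AQUOLIVE pools under all control pools, and passed neither threshold.

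In prkaa2 and egln2, and in the other two probes past the threshold, the diets did not overlap. The succinate dehydrogenase assembly factor sdhaf2 was higher, at 1.32 (SE 0.31), but at 0.65 and not past the threshold on the deposited values. The assembly factors sdhaf1 and sdhaf4 stood at -2.34 (SE 1.06) and 0.06 (SE 0.20) and passed neither threshold. The sdhaf1 probe was above background on 2 AQUOLIVE and 3 control arrays. The enzyme sedoheptulokinase, shpk, which feeds the pentose phosphate pathway, was lower, at -0.84 (SE 0.25), and between -0.99 and -0.69 with 1 array left out, the smaller sizes not past the threshold. The measured subunits of succinate dehydrogenase itself, sdhb, sdhc and sdhdb, lay at 0.11, -0.40 and -0.24 and passed neither threshold.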

How the data were processed

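HK RNA pools, 3 per diet, were hybridized to one-color arrays. The authors scanned the slides and deposited the intensity of each spot from Agilent's Feature Extraction software, with outlier and background flags, and a log2 value per spot, which was the background-subtracted signal in log2 units (tolerance 1e-08), with no scaling between arrays. The authors' filtered and Lowess-normalized ratios were not used here.

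From the deposited intensities, processed signals were put on the log2 scale (R 4.3.3) without control spots, and non-uniform and population outlier spots became missing values. The filter on dim probes asked for a flag above background on 3 or more of the 6 arrays and left 25826 of 42386 probes. Normalization subtracted, for each array, a robust loess curve (span 0.3, 4 iterations) of its log2 ratio against the average of the 3 control arrays; the methods name Lowess but not this reference or span. Diets were compared in limma 3.58.1 (lmFit and eBayes, Benjamini-Hochberg over all kept probes, two-sided, 0.05), and by the methods' t-test (unadjusted p under 0.05, absolute log2 FC no less than 0.8). This minimum is the lower end of the intervals in which the paper gives its genes. Pairs of enzyme forms were compared by exact permutation. The test was tried on simulated data with 200 changed probes.

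Gene symbols came from the RefSeq table of Ssal_v3.1 through unversioned accessions of the probes: 40933 have an accession, 25641 were found, and 8155 of those have a symbol. A few members and markers are not reported here by name, though counts over lists hold them. Members and lists were chosen with earlier results of these data known. Given with every pool by rule were members past a threshold and, in each role, the tested probe with the smallest p and the one with the highest signal (18 probes); all other members named were chosen after their values were seen. Alternatives were 75th percentile scaling, quantile normalization, loess against all 6 arrays, normexp (offset 50), the deposited values, other filters, outlier spots kept, pool number as a block, leaving out each array, and, added later, leaving out AQUOLIVE pool 2 and control pool 3 together. Normexp was to use the mean spot signal; the median spot signal was used. Nothing in the labels says that pools 1, 2 and 3 pair across diets. The number of arrays limits the precision.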

Additional observations from a re-analysis of the deposited data

How the results depend on the processing

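No member passed limma's adjusted p of 0.05 in any alternative run. The count of members past the methods' threshold was 3 in the reported setting, 1 with normexp and 0 on the deposited values, and between 1 and 4 without 1 array. The share of all probes past it moved too, from 9.05% as reported to 2.68% with normexp and 5.76% on the deposited values. Without 1 array that share was 4.38% to 9.75%. Members at an unadjusted limma p under 0.05 numbered 1 on the deposited values and 3 to 8 without 1 array, against 4 as reported. The share of all probes there was 8.95% on the deposited values and 9.15% to 19.6% without 1 array, against 18.1% as reported. The median log2 FC of the tested members was 0.0303 to 0.15 without 1 array, the lowest without control pool 3. The further pathway probes past the methods' threshold numbered 2 with normexp, 2 on the deposited values and 2 with the filter on all 6 arrays, and 3 to 7 without 1 array, against 4 as reported. With that filter 6.75% of all probes kept passed. In place of the methods' t-test, limma's unadjusted p with the same minimum log2 FC called 4 members and 3622 of all probes, against 3 and 2336. Without 1 array in turn, 3 of the 3 members past the methods' threshold kept their direction. Their pools do not overlap between the diets, which all but fixes the direction without 1 array, so this is not a further result. Of 16 alternatives, pgls was called in 14, g6pc1a.1 in 8 and g6pc3 in 7. Reversed signs occurred in small or spread-out differences. With quantile normalization pgd was at -0.18. With normexp ldhd was at -0.0861, got1 at 0.0834 and eno3 at -0.10, and on the deposited values ldhd was at -0.21, cs at -0.13, got1 at 0.21 and eno3 at -0.38. Without AQUOLIVE pool 2 and control pool 3 together, ldha was at -0.0889, pgd at -0.0545, pygma at 0.14, pfkma at 0.90 and eno1b at 0.13. Without 1 array, log2 FC ranged from -0.44 to 0.88 in ldha, -0.0149 to 2.40 in pck1, -0.13 to 0.37 in pfkfb4a, -0.00231 to 0.33 in eno3, -0.21 to 0.03 in pgam5, -0.0545 to 0.25 in pgd, -1.36 to 0.00636 in pygma, -1.27 to 0.64 in pfkma and -0.30 to 0.15 in eno1b. The cause was not tested.

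With the pool number as a replicate block, 1 member (pgls) and 1 further pathway probe passed the methods' threshold in the paired form, beside 5.35% of all probes. Of the members, 0 passed limma's adjusted p. The deviations of same-numbered pools from their diet means correlated at 0.21, -0.06 and 0.03 for pools 1, 2 and 3. Between pools of unlike number they correlated at -0.23 to 0.19. With so few pools, these values cannot decide whether pools of the same number share more than that number.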
